A study of Mus musculus with 2 samples.

Results

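The genes described here are *Nkx2-1*, *Foxa1*, *Foxa2*, *Elf3* and *Prox1*, 5 transcription factors of the lung and foregut epithelium taken by symbol from the 27998 genes of the count matrices. Their unique molecular identifiers (UMIs, 1 per captured transcript) were read in barcodes with more than 500 detected genes. The cells came from the lungs of 2 TKO mice, a model of small cell lung cancer (SCLC), with 1 tumor per mouse (TKO1 and TKO2) and 1 droplet library per tumor. Both mice carried Rb-/-, Trp53-/- and Rbl2-/- tumor cells and a Rosa26 reporter (membrane-Tomato or membrane-GFP) on a background that mixes C57BL/6 with the strains 129/SVJ and 129/SvOla, and were 8 to 9 months old, 7 months after intratracheal Adeno-CMV-cre. The CMV promoter does not restrict Cre to one cell type, so recombination could start in any infected airway cell. Live cells were sorted with no selection for a cell type. Since each tumor stands for 1 mouse and 1 library, a difference between TKO1 and TKO2 cannot be told apart from a difference between mice or libraries, no p-value was computed, and every interval given is a 95% interval for counting error only.

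*Nkx2-1* encodes the homeodomain factor that specifies lung and thyroid epithelium and switches on surfactant and secretoglobin genes in alveolar type 2 and club cells. *Foxa1* and *Foxa2* encode forkhead pioneer factors that open chromatin in endoderm, bind many of the same lung genes as NKX2-1 and act partly redundantly in airway branching. *Elf3* encodes an ETS factor restricted to epithelia, and *Prox1* a homeodomain factor known from lymphatic endothelium, liver, pancreas and neuroendocrine (NE) cells. Pulmonary NE cells, the cell type that SCLC resembles, normally express *Nkx2-1* and *Foxa2* beside NE factors such as *Insm1*.

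All 5 genes lie on the minus strand of GRCm38. *Nkx2-1* (ENSMUSG00000001496, chromosome 12, 56531958 to 56536908) and *Foxa1* (ENSMUSG00000035451, chromosome 12, 57540628 to 57546916) are neighbours at a distance of 1003719 bases. *Foxa2* (ENSMUSG00000037025) lies on chromosome 2, from 148042877 to 148046969. *Elf3* (ENSMUSG00000003051, 135253575 to 135258568) and *Prox1* (ENSMUSG00000010175, 190118035 to 190170714) lie far apart on chromosome 1. An antisense gene overlaps *Nkx2-1* (*Gm26973*) and another overlaps *Elf3* (*Gm26642*), and 2 overlap *Prox1* (*Gm28172* and *Prox1os*). The strand setting of the counting is not given in the sources used here, so these levels carry that uncertainty.

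RefSeq promoter windows (GRCm38.p6, 250 bases before to 50 after a start site) matched all 5 members, with 8 windows in total. The windows of the 3 members that were at least 2-fold higher in TKO1 are shown, 5′ to 3′ along the gene, with matches in capitals to CAAGTG (an NKX2-1 core), TGTTTNC (a forkhead core) or CCGGAAG (an ETS core) on either strand.
Elf3 promoter, chr1:135258423-135258722, minus strand: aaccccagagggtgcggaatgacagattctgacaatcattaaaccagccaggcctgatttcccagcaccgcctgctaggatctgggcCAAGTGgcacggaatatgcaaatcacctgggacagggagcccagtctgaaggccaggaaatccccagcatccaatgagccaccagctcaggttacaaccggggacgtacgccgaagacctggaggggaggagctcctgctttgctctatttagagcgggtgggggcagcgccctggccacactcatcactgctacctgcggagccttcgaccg
Nkx2-1 promoter, chr12:56536859-56537158, minus strand: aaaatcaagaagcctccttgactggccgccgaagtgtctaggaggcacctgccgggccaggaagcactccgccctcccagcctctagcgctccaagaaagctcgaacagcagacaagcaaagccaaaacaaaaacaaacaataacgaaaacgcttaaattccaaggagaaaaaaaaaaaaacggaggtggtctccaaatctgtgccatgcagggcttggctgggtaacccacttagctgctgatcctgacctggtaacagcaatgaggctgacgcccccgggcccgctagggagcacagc
Foxa1 promoter, chr12:57546062-57546361, minus strand: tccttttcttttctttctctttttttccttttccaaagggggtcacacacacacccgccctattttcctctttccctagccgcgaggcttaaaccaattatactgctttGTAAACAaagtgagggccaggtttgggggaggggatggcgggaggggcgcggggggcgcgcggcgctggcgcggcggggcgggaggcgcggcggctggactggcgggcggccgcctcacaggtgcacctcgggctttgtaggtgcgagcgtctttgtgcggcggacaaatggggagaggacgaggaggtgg
The *Elf3* window held 1 CAAGTG, 163 bases before the start. The *Foxa1* window held 1 forkhead core, read as GTAAACA on the shown strand, 141 bases before the start. The *Nkx2-1* window held none of the 3 motifs. Of the remaining windows, 1 of the 2 at *Prox1* held CAAGTG and the other held TGTTTGC, and the 3 at *Foxa2* held no match, with no motif overlapping another. Among all 32851 windows, 13.6% held CAAGTG, 20.5% the forkhead core and 8.86% the ETS core, so single matches of this kind were common and describe letters only.

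The TKO1 library had 4514 barcodes and 5285038 UMIs, and 3193 barcodes (70.7%, 69.4 to 72.1) had more than 500 genes. TKO2 had 3816 barcodes and 8291430 UMIs, and 3568 (93.5%, 92.7 to 94.3) passed. Retained cells were shallow, with medians of 1223 UMIs in TKO1 and 1960 in TKO2. The 2 libraries shared 11 retained barcodes.

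Clusters were found in each tumor without the 5 members among the clustering genes and were named from marker genes. In TKO1, 2620 cells (82.1%) in 7 clusters were NE-like, 105 (3.29%) club-like, led by *Scgb1a1*, *Scgb3a2* and *Scgb3a1*, and 98 (3.07%) macrophage-like. A further cluster of 370 cells (11.6%) was led by genes of ciliated cells (*Cfap126*, *Tppp3*, *Dynlrb2*) and of the stress response (*Ddit3*, *Trib3*) while also carrying NE markers, and stayed unnamed. In TKO2, 3379 cells (94.7%) in 8 clusters were NE-like and 123 (3.45%) macrophage-like, and 66 cells (1.85%) led by *Scgb1a1*, *Scgb3a2* and *Calca* together stayed unnamed, so TKO2 had no club-like class. The club-like cluster was not pure in its markers: 8 alveolar type 2 and 7 club markers exceeded the other cells at least 4-fold, with *Sftpb*, *Sftpd* and the alveolar type 1 gene *Ager* among its leading genes.

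The NE label rests on unequal evidence in the tumors. The 17 NE markers summed to 23259 CPM (UMIs of a gene per 1000000 UMIs of the class) in the NE-like cells of TKO1 and to 2031 CPM in those of TKO2, against 4489 and 734 CPM in the macrophage-like cells of the same tumors. *Calca*, the calcitonin gene-related peptide precursor, accounted for most of that gap, with 17077 CPM in TKO1 and 17.5 CPM in TKO2. *Insm1*, a zinc finger factor of NE cells, was at 123 and 119 CPM.

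*Nkx2-1* and *Elf3* were higher in TKO1 than in TKO2, *Foxa1* less so, *Foxa2* by less again, and *Prox1* barely differed. In NE-like cells *Nkx2-1* had 1898 UMIs or 504 CPM in TKO1 and 1027 UMIs or 132 CPM in TKO2. That is a log2 ratio of 1.93 (1.82 to 2.04), a 3.81-fold difference. The macrophage-like cells, which should lack the gene, had 112 CPM in TKO1 and 26.1 CPM in TKO2, which gives the level that free RNA could contribute in each library. NE-like cells stood well above that level in both tumors.

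*Foxa1* had 396 UMIs (105 CPM) in the NE-like cells of TKO1 and 371 UMIs (47.8 CPM) in those of TKO2. Its log2 ratio was 1.14 (0.93 to 1.34). *Foxa2*, the second pioneer factor, had 866 UMIs (230 CPM) and 1217 UMIs (157 CPM), with a log2 ratio of only 0.55 (0.42 to 0.68). In macrophage-like cells *Foxa1* was at 20.98 CPM in TKO1 (3 UMIs) and 34.7 CPM in TKO2 (8 UMIs, up to 68.4), and *Foxa2* at 35.0 and 52.1 CPM. The *Foxa1* level of TKO2 NE-like cells thus lay inside the counting interval of its own background, while *Foxa2* lay above it in both tumors.

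*Elf3* had 799 UMIs (212 CPM) in the NE-like cells of TKO1 and 370 UMIs (47.7 CPM) in those of TKO2. Its log2 ratio of 2.15 (1.97 to 2.33) was the highest of the 5. In macrophage-like cells *Elf3* was at 35.0 CPM (5 UMIs) in TKO1, the same level as *Foxa2* there, and at 4.34 CPM (1 UMI) in TKO2. *Prox1* had 586 UMIs (156 CPM) and 971 UMIs (125 CPM), with a log2 ratio of 0.31 (0.16 to 0.46), and macrophage-like cells at 28.0 and 73.8 CPM. *Prox1* therefore barely separated the tumors. In TKO2 its macrophage-like level rests on 17 UMIs (43.0 to 118 CPM), and the source of those UMIs was not tested.

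**Figure D1:**
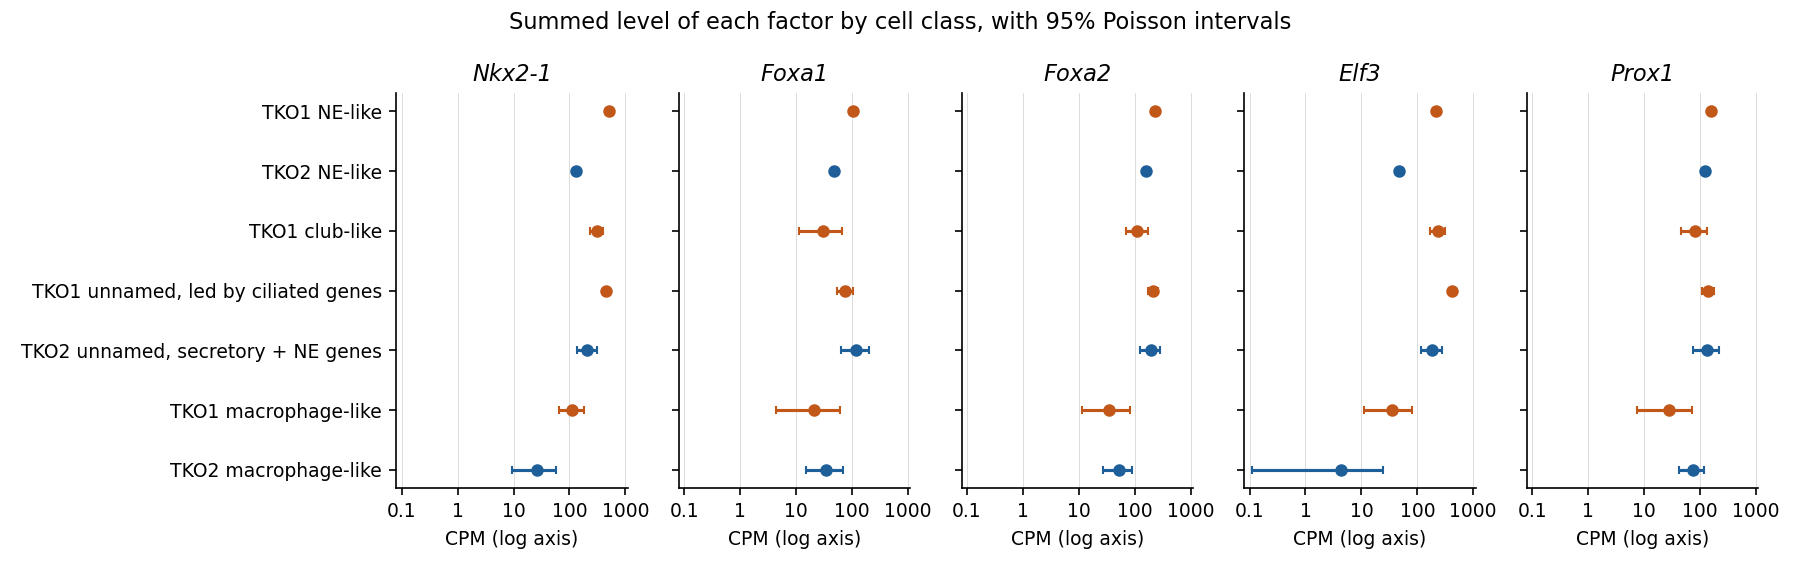
CPM of each factor (log axis) in the summed cells of each class, TKO1 in orange and TKO2 in blue, with bars for the 95% Poisson interval. *Nkx2-1* and *Elf3* are farther right in TKO1 than in TKO2 NE-like cells, at 504 against 132 and 212 against 47.7 CPM, while *Prox1* sits at 156 and 125.

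Many genes were higher in TKO1, so these ratios were read against all genes. Taking the 10283 genes with 50 or more UMIs, their log2 ratios had a median of 0.30, and 26.5% were at least 2-fold higher and 10.5% at least 2-fold lower in TKO1. The members at least 2-fold higher were 3 of 5, *Nkx2-1*, *Foxa1* and *Elf3*, and 0 of 5 were 2-fold lower. Relative to the median gene the log2 ratios were 1.62 for *Nkx2-1*, 0.83 for *Foxa1*, 0.25 for *Foxa2*, 1.85 for *Elf3* and 0.01 for *Prox1*, which leaves 2 members past 2-fold and places *Prox1* at the median. A higher ratio was seen for 8.45% of genes in the case of *Elf3*, 10.4% for *Nkx2-1*, 23.0% for *Foxa1*, 40.2% for *Foxa2* and 49.5% for *Prox1*. None of the 5 was therefore among the most extreme genes. Ribosomal protein genes took 10.0% of NE-like UMIs in TKO1 and 21.5% in TKO2, and their part in the ratios enters the alternatives given with the processing.

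**Figure D2:**
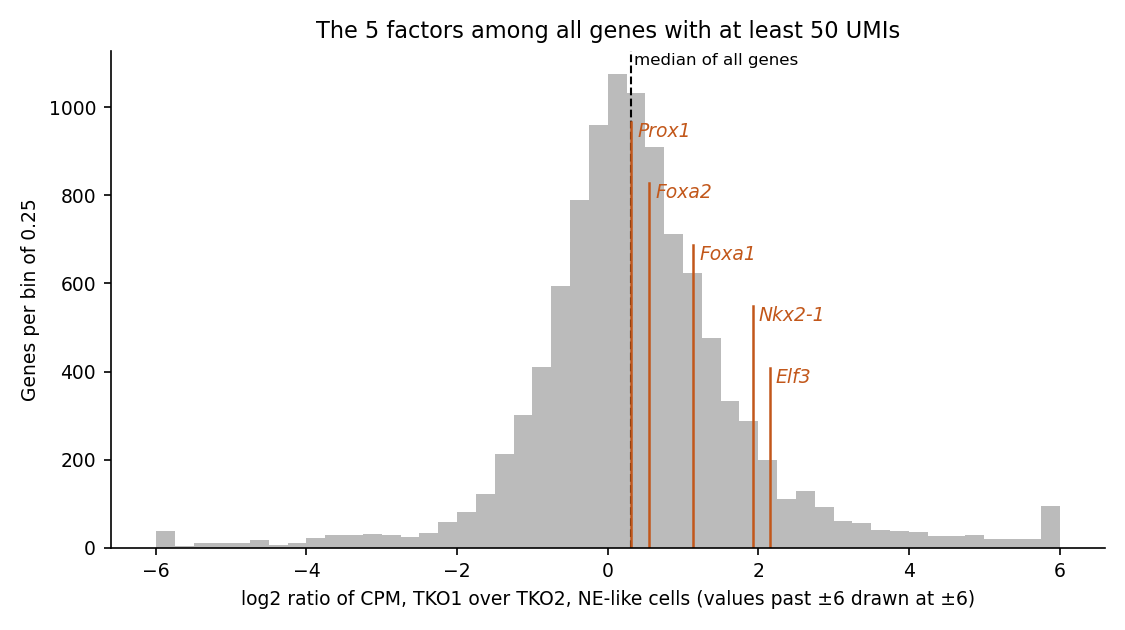
Number of genes (vertical axis) by log2 ratio of TKO1 over TKO2 CPM in NE-like cells, for genes with at least 50 UMIs, with the 5 factors as orange lines and the median of all genes dashed. *Prox1* (0.31) falls on the median of 0.30 and *Elf3* (2.15) and *Nkx2-1* (1.93) lie in the right shoulder.

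The share of cells with a UMI gave the same picture once depth was made equal. Each NE-like cell was thinned to 1000 UMIs, which kept 1892 cells of TKO1 (728 were shallower) and 3018 of TKO2 (361 shallower). *Nkx2-1* was then seen in 36.7% (34.6 to 39.0) of TKO1 and 10.8% of TKO2 cells, and *Elf3* in 18.0% (16.3 to 19.8) and 4.27% (3.58 to 5.06). *Foxa1* was seen in 8.93% (7.69 to 10.3) and 4.64% (3.92 to 5.45). *Foxa2*, at 19.0% (17.2 to 20.8) and 15.1% (13.8 to 16.4), also differed beyond counting error, but by less, and the intervals of *Prox1*, at 12.1% (10.7 to 13.7) and 10.9% (9.84 to 12.1), overlapped. The intervals of 4 of 5 members thus stood apart with TKO1 higher, as did those of 30.8% of the 10283 genes. Without thinning the order of the tumors turned for *Foxa2* (23.6% in TKO1, 26.4% in TKO2) and for *Prox1* (17.1% and 22.1%), where the deeper TKO2 library had more cells with a UMI.

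Background shares at the same depth came from 82 macrophage-like cells of TKO1 and 114 of TKO2, whose median depths before thinning were 1433 and 1737 UMIs, beside 1418 and 2106.5 UMIs in the thinned NE-like cells. *Nkx2-1* was seen in 8.54% (7 cells) of these in TKO1 and 0.877% in TKO2, and *Foxa2* in 4.88% and 3.51%. *Elf3* was seen in 2.44% and 0.877% (1 cell, 0.022 to 4.79), the latter overlapping the interval of its NE-like share. *Prox1* was seen in 3.66% (0.761 to 10.3) and 7.02% (3.08 to 13.4), the latter overlapping the interval of the NE-like cells. *Foxa1* was seen in 0 of 82 cells of TKO1, which allows up to 4.40%, and in 2.63% (3 cells) of those of TKO2, which overlaps its NE-like share. The share intervals of *Foxa1*, *Elf3* and *Prox1* in TKO2 hence overlapped those of background at this depth. Over summed UMIs of TKO2, the macrophage-like to NE-like log2 ratio was -0.46 (-1.68 to 0.53) for *Foxa1*. For *Elf3* it was -3.46 (-8.77 to -0.97), on 1 macrophage-like UMI. For *Prox1* it was -0.76 (-1.55 to -0.076), with the median of all genes at -0.43.

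Within a cell the detections were mostly single molecules. Of the TKO1 cells with *Nkx2-1*, 487 had 1 UMI, 162 had 2 and 46 had 3 or more, up to 6. The variance over the mean was 1.25 for *Nkx2-1* and 1.49 for *Foxa2* in TKO1, where single cells reached 10 *Foxa2* UMIs, and between 1.10 and 1.30 for the other 3. In TKO2 it was 1.42 for *Elf3*, with 1 cell at 8 UMIs and 123 of the 129 positive cells at 1 UMI, and 1.05 to 1.15 for the other 4. A value of 1 is what random sampling of 1 common level would give.

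At 1000 UMIs per cell the correlations between the members were weak. Across thinned NE-like cells the Pearson correlations of the 10 pairs ran from -0.014 to 0.030 in TKO1 and from -0.015 to 0.013 in TKO2, and 5 of 10 were positive in each. The highest in TKO1 were *Foxa2* with *Prox1* and *Nkx2-1* with *Foxa1*, both at 0.030. *Foxa2* and *Prox1* were both detected in 52 TKO1 cells, where 43.5 would be met if they were unrelated, and *Nkx2-1* and *Foxa2* in 139 against 132. *Elf3* and *Foxa2* were both detected in 67 TKO1 cells against 64.7 and in 18 TKO2 cells against 19.5. The middle 95% of each member's correlations with all other genes of at least 0.05 mean UMIs was narrowest for *Prox1* in TKO2, at -0.034 to 0.041. It was widest for *Elf3* in TKO1, at -0.050 to 0.052, and all 20 values lay inside both ranges. At 2000 UMIs, 453 TKO1 and 1663 TKO2 cells were deep enough. *Nkx2-1* with *Foxa2* was then at 0.066 and with *Prox1* at -0.057 in TKO1, and *Foxa2* with *Elf3* at 0.062 in TKO2. These values are past the limits above, but those limits came from 1000 UMIs and more cells. No limits were computed at 2000 UMIs, so the values cannot be placed against all genes at that depth. The cells of a tumor share 1 library and its free RNA, and at these levels a weak correlation is no finding.

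**Figure D3:**
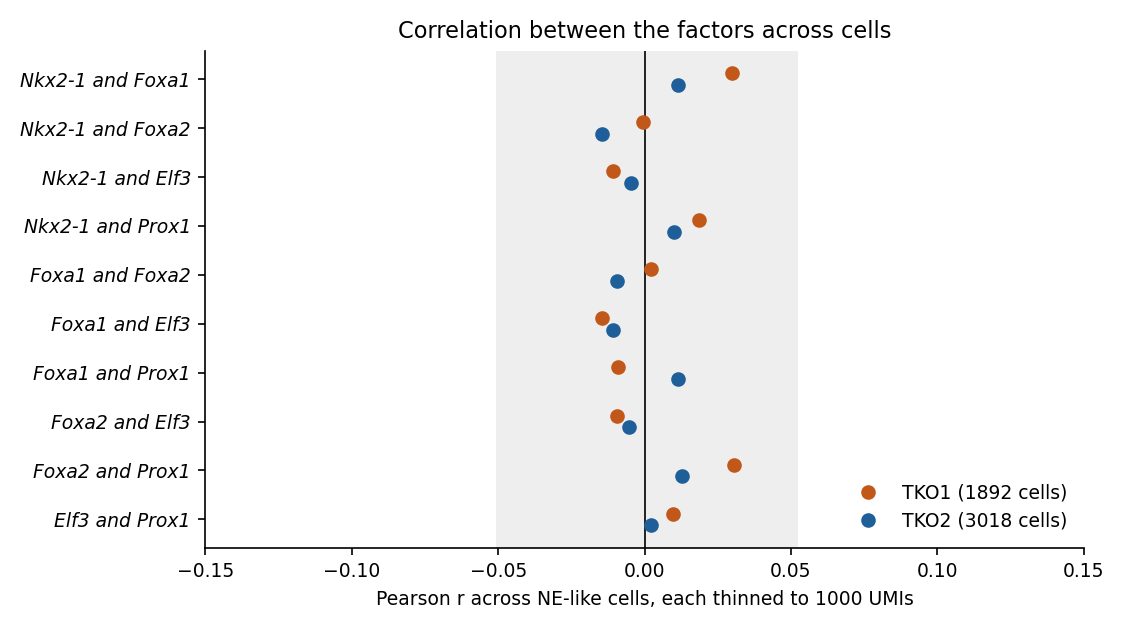
Pearson r of each of the 10 pairs of factors (rows) across NE-like cells thinned to 1000 UMIs, TKO1 (1892 cells) in orange and TKO2 (3018 cells) in blue. The grey band is the widest middle 95% of correlations with all other genes over the 5 factors and both tumors, -0.050 to 0.052 (*Elf3* in TKO1). Every point lies in it, and the other factors and tumor had narrower ranges, down to -0.034 to 0.041 (*Prox1* in TKO2).

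Counting members per thinned cell gave the same description. Of the TKO1 cells, 33.8% showed none of the 5 factors, 42.7% showed 1, 19.0% showed 2, 4.07% showed 3 and 0.476% showed 4. Of the TKO2 cells, 61.6% showed none, 31.6% showed 1, 6.20% showed 2, 0.563% showed 3 and 0.0331% (1 cell) showed 4. No cell of either tumor showed all 5. Cells with and without an *Elf3* UMI carried like amounts of the other members: in TKO1, 46.9 (39.9 to 54.8) against 52.1 (48.6 to 55.8) *Nkx2-1* UMIs and 24.3 (19.4 to 30.2) against 24.3 (21.9 to 26.9) *Foxa2* UMIs per 100 cells.

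Levels were also summed over the NE-like clusters. Clusters come from the same counts and their cells are not replicates, so these values are a description. *Nkx2-1* ran from 294 to 700 CPM over the 7 NE-like clusters of TKO1, lowest in cluster 7, led by the neurofilament genes *Nefm* and *Nefl* and by *Neurog3*, and highest in cluster 1, led by *Dcpp1*, *Npy1r* and *Th*. In TKO2 it ran from 91.5 to 177 CPM, highest in cluster 4, whose leading genes (*Ccnb1*, *Plk1*, *Cdc20*) are those of mitosis. Every TKO1 cluster was thus above every TKO2 cluster for *Nkx2-1*, as it was for 14.4% of the 10283 genes. By point value the same held for *Foxa1* (79.5 to 146 against 37.4 to 62.0 CPM). It held narrowly for *Elf3* (112 to 292 against 7.22 to 106 CPM). For *Foxa2* (201 to 268 against 83.7 to 266 CPM) and *Prox1* (95.7 to 197 against 90.3 to 171 CPM) it did not hold. Intervals of *Foxa1* overlapped between TKO1 cluster 7 (52.4 to 116 CPM, 27 UMIs) and TKO2 cluster 2 (46.1 to 81.5 CPM). Those of *Elf3* overlapped between TKO1 cluster 6 (87.1 to 142 CPM) and TKO2 cluster 0 (87.8 to 128 CPM). Relative to the median gene the lowest TKO1 cluster fell to 238 for *Nkx2-1*, 64.3 for *Foxa1* and 90.6 CPM for *Elf3*. The clusters of *Elf3* then overlapped. By point value 2 of 5 members stood apart, *Foxa1* narrowly (64.3 against 62.0 CPM), against 9.15% of all genes.

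*Elf3* divided the NE-like clusters of TKO2. It was at 106 CPM in cluster 0, 92.3 in cluster 2, 76.2 in cluster 7 and 72.5 in cluster 5. In clusters 6, 3, 4 and 1 it was at 15.8, 13.2, 12.5 and 7.22 CPM, a gap with no cluster between 15.8 and 72.5. These low levels rest on 15, 12, 16 and 7 UMIs. They lie inside the interval of *Elf3* in TKO2 macrophage-like cells (4.34 CPM, 0.11 to 24.2, 1 UMI), so they cannot be told from background. The high clusters were led by epithelial genes such as the keratins *Krt8* and *Krt18*, the claudins *Cldn6* and *Cldn7*, *Epcam* and *Rab25*, or, for cluster 7, by mitotic genes (*Nusap1*, *Cenpf*, *Mki67*). Of the low clusters, 1 was led by *Cdkn1c*, *Gamt*, *Mfap2* and *Ptgds*, 3 by *Rrm2*, *Map2k6*, *Gamt* and *Rad51ap1* together with the DNA replication genes *Dtl* and *Cdt1*, 4 by mitotic genes and 6 by *Spp1* and *Vtn*. A mitotic cluster thus stood on each side of the gap. *Elf3* was itself among the 10 leading genes of cluster 0 and among the variable genes of TKO2, though it was left out of the clustering.

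*Foxa2* followed the same division in its point values. Its levels were 218, 266, 198 and 162 CPM in clusters 0, 2, 7 and 5, and 106, 83.7, 122 and 121 CPM in clusters 6, 3, 4 and 1. *Nkx2-1* was at 91.5, 109, 131 and 128 CPM in the former and at 115, 156, 177 and 139 CPM in the latter, so its levels overlapped and leaned the other way. *Prox1* was at 148, 171, 131 and 145 CPM against 91.5, 119, 90.3 and 122 CPM, with the *Elf3*-high clusters above the others by point value. Its intervals overlapped between clusters 7 (108 to 159) and 1 (101 to 146). Those of *Foxa2* overlapped between clusters 5 (137 to 190) and 1 (99.8 to 145). The division was set by *Elf3* in the same counts, and the share of all genes that part these clusters was not counted. *Foxa1* showed no such order, at 43.5, 62.0, 44.2 and 44.4 CPM against 61.0, 37.4, 46.7 and 45.4 CPM. In TKO1 the lowest *Elf3* (112 CPM) and *Prox1* (95.7 CPM) were both in cluster 6, which was led by mitotic genes (*Ube2c*, *Ccnb2*, *Birc5*), and *Foxa2* varied little, by 1.34-fold from the lowest to the highest cluster.

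**Figure D4:**
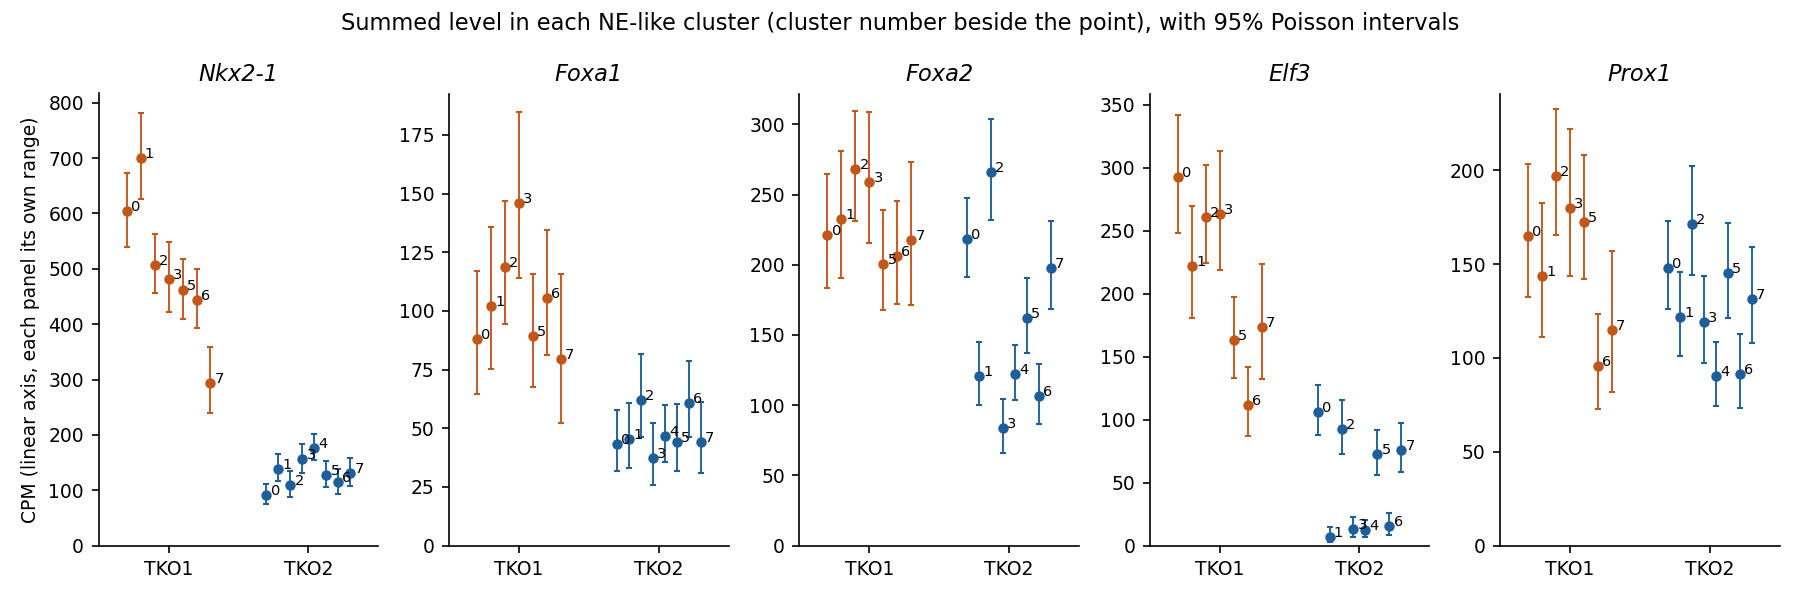
CPM (vertical axis, linear, its own range in each panel) of each factor in every NE-like cluster of TKO1 (orange, 7 clusters) and TKO2 (blue, 8 clusters), with cluster numbers beside the points and bars for the 95% Poisson interval. In TKO2 *Elf3* splits into clusters at 72.5 to 106 CPM and clusters at 7.22 to 15.8 CPM.

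In the club-like cells of TKO1 the members had few UMIs, since 105 cells held 196671 UMIs and *Scgb1a1* alone took 49917 of them. *Nkx2-1* had 61 UMIs (310 CPM, 237 to 398), against 504 CPM in NE-like cells, a log2 ratio of -0.70 (-1.09 to -0.33). *Elf3* had 46 UMIs (234 CPM, 171 to 312), against 212 CPM, a log2 ratio of 0.14 (-0.32 to 0.57). The *Elf3* interval included 0, and with *Scgb1a1*, *Scgb3a2*, ribosomal protein and mitochondrial genes taken out of the total its log2 ratio was 0.64, beside -0.20 for *Nkx2-1*. Of its 46 UMIs, 6 came from 3 cells with no *Scgb1a1* or *Scgb3a2* UMI. In TKO1 cells with at least 1 percent secretory UMIs *Elf3* was at 197 CPM. The other cells outside the macrophage-like class were at 237 CPM, a log2 ratio of -0.26. *Foxa2* had 22 UMIs (112 CPM, log2 ratio -1.04, -1.72 to -0.43), *Prox1* 16 (81.4 CPM, -0.94, -1.75 to -0.22) and *Foxa1* 6 (30.5 CPM, -1.79, -3.24 to -0.65).

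Over 8066 genes the median log2 ratio of club-like to NE-like cells was -0.68, with 3.98% of genes at least 2-fold higher and 36.0% at least 2-fold lower. These genes had at least 50 UMIs over both classes together. NE-like cells held 3765592 of the UMIs and club-like cells 196671, so this limit favours genes of NE-like cells and lower ratios. Of the members, 0 of 5 were 2-fold higher and 2 of 5, *Foxa1* and *Foxa2*, were 2-fold lower, a share near that of the 8066 genes. *Nkx2-1* sat at the median of these 8066 genes and *Elf3* 0.82 above it. At 1000 UMIs per cell *Nkx2-1* was seen in 27.5% (18.6 to 37.8) of 91 club-like cells and *Elf3* in 19.8% (12.2 to 29.4). *Foxa2* was seen in 10.99% (5.40 to 19.3) and *Foxa1* and *Prox1* in 3.30% (0.685 to 9.33) each. The share intervals of *Foxa1*, *Foxa2* and *Prox1* overlapped those of TKO1 macrophage-like cells (0%, 4.88% and 3.66%), and so did their CPM intervals. These 3 members were thus not separated from background in club-like cells, while the intervals of *Nkx2-1* and *Elf3* lay above it. *Calca*, an NE marker, was also read outside NE-like cells, at 4871 CPM in club-like and 3293 CPM in macrophage-like cells of TKO1. The source of such UMIs, for example free RNA or doublets, was not tested. Its part in the club-like levels of the members was not tested either.

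The 2 unnamed clusters are given by their values. In the TKO1 cluster led by ciliated-cell genes, *Elf3* was at 425 CPM (367 to 489), above each NE-like cluster, and was seen in 36.0% (30.2 to 42.2) of 258 thinned cells. *Nkx2-1* (451 CPM), *Foxa2* (215 CPM), *Prox1* (139 CPM) and *Foxa1* (75.9 CPM) were at or below the level of NE-like cells there. In the TKO2 cluster with secretory and NE genes, *Elf3* was at 184 CPM (22 UMIs) against 47.7 CPM in NE-like cells, a log2 ratio of 1.95 (1.26 to 2.57). *Foxa1* (117 CPM, 14 UMIs, log2 ratio 1.29, 0.41 to 2.06) and *Nkx2-1* (209 CPM, 25 UMIs, 0.66, 0.02 to 1.23) were also above NE-like cells, while *Foxa2* (0.29, -0.37 to 0.89) and *Prox1* (0.10, -0.72 to 0.80) did not differ beyond counting error. In neither tumor was *Elf3* lower in the secretory cluster than in NE-like cells beyond counting error.

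Related factors were read from gene lists, which describe and do not test. Of 25 other lung epithelial transcription factors, 15 had at least 50 UMIs in NE-like cells, and 8 were at least 2-fold higher in TKO1, 2 lower and 5 between, with a median log2 ratio of 1.04 against 0.30 for all genes. The higher ones included *Sox2*, the proximal airway factor (184 against 63.6 CPM, 1.54), *Klf5* (46.5 against 15.6 CPM, 1.57), *Id2* (553 against 112 CPM, 2.30) and *Foxj1*, the ciliogenesis factor (43.0 against 2.32 CPM, 4.21). *Irx1* (1.06 against 10.1 CPM, -3.24) and *Foxp2* (1.33 against 7.09 CPM, -2.42) were the lower ones. Among ETS factors other than *Elf3*, 8 of 15 had enough UMIs, of which 6 were higher and 0 lower, with a median of 1.67. *Ehf*, another ETS factor of epithelia, had 208 UMIs in TKO1 and 6 in TKO2 (55.2 against 0.774 CPM, 6.16, 5.01 to 7.62), and *Ets2* was at 100.4 against 26.7 CPM (1.91).

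Genes known as targets of NKX2-1 and FOXA factors were scarce in NE-like cells. Of 17 secretory and surfactant genes, 5 had at least 50 UMIs, of which 4 were at least 2-fold higher in TKO1 and 0 at least 2-fold lower, with a median log2 ratio of 3.85. The remaining gene, *Lpcat1*, was lower in TKO1 by less than 2-fold (14.9 against 26.9 CPM, -0.86, -1.31 to -0.43). *Scgb1a1*, the club cell secretoglobin, had 389 CPM in TKO1 and 18.2 CPM in TKO2 (4.42), and *Sftpc*, the alveolar type 2 surfactant gene, had 78 UMIs in TKO1 and 0 in TKO2. *Abca3*, a lamellar body lipid transporter, was at 23.4 and 7.74 CPM (1.59). *Sftpb* (13 and 1 UMIs) and *Sftpa1* (0 and 0 UMIs) were at or near 0 in both tumors beside 1898 and 1027 *Nkx2-1* UMIs. Macrophage-like cells held 224 CPM of *Scgb1a1* in TKO1, and 23.7% (22.0 to 25.3) of TKO1 and 2.87% (2.33 to 3.49) of TKO2 NE-like cells held a *Scgb1a1* or *Scgb3a2* UMI. The part of free secretory RNA in this list was not tested, and without those cells the log2 ratios of *Nkx2-1* and *Elf3* were 1.95 and 2.14.

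In club-like cells genes of the same list served to name the cluster, so their levels there are a description only. *Sftpb* was at 2141 against 3.45 CPM and *Scgb3a2* at 12905 against 20.4 CPM, beside *Nkx2-1* at 310 against 504 CPM. The 7 ETS factors had a median of 0.23, with *Ehf* at 178 against 55.2 CPM (1.69, 1.13 to 2.21) and *Elf1* at 86.4 against 35.6 CPM (1.28) the higher 2 and *Elf2* (-1.13) and *Ets2* (-1.50) the lower 2. Of 11 lung epithelial factors with enough UMIs 1, *Klf5* (1.06), was higher and 2, *Foxp1* (-1.66) and *Foxj1* (-1.50), were lower. *Foxj1* had only 3 UMIs in club-like cells, and its interval (-3.79 to 0.077) included 0. The UMI limit favours genes of NE-like cells in each list, so these counts cannot show how many listed factors were higher in club-like cells. Below it, *Irx1* (66.1 against 1.06 CPM, 5.96, 4.26 to 8.03) and *Irx3* (3.07, 2.05 to 4.01) were higher. So were *Gata6* (1.71, 0.17 to 2.98) and *Sox9* (11 against 0 UMIs). Lower ones, such as *Tfcp2l1* (-0.26, -5.63 to 2.36) and *Grhl1* (0 against 29 UMIs), had intervals that included 0. Of 9 NE partner factors 0 were higher and 5 were lower, with *Mycl* at 66.1 against 224 CPM (-1.76).

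**Figure D5:**
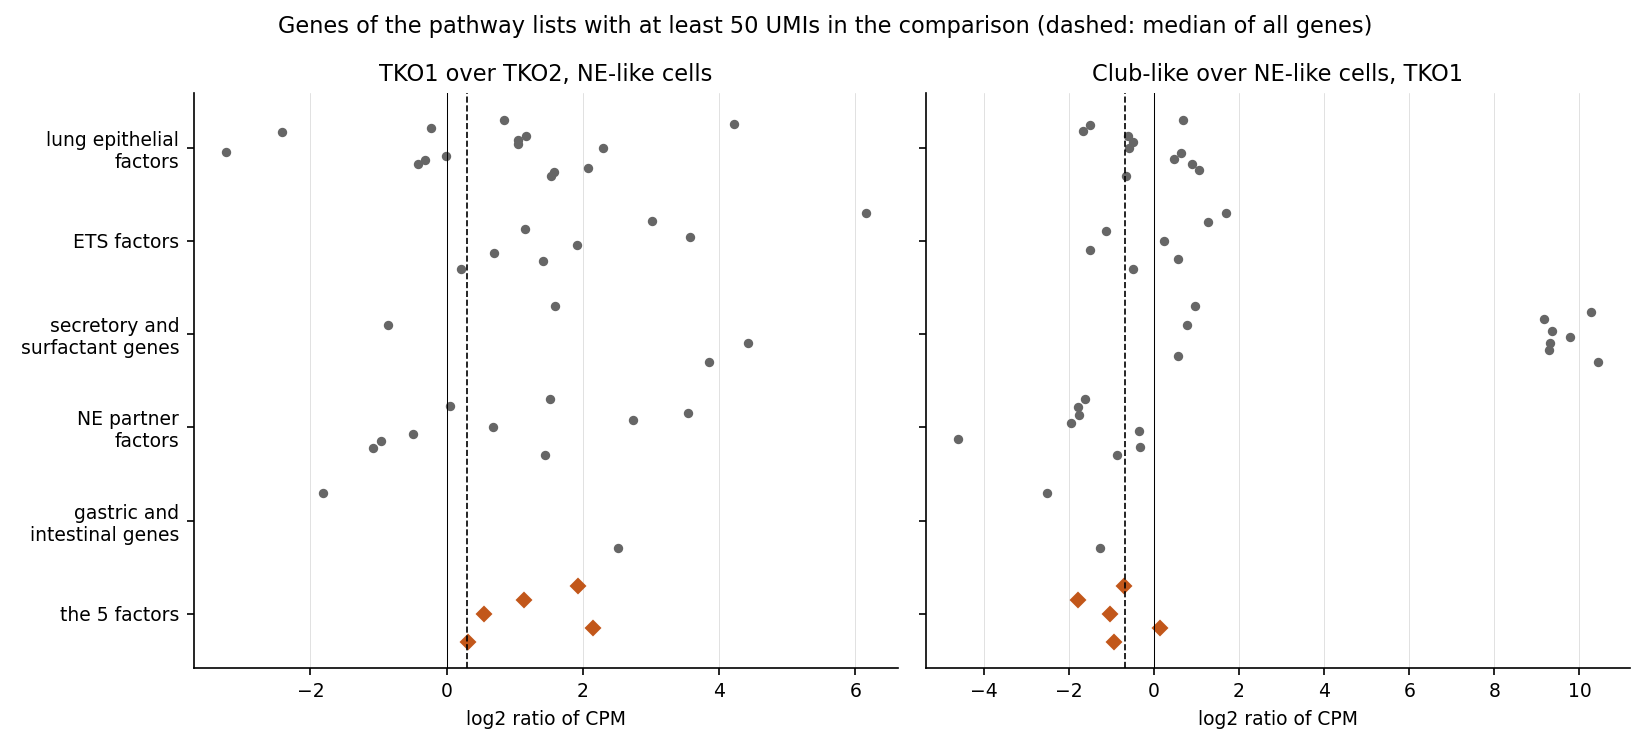
Log2 ratio of CPM (horizontal axis) for the genes of each list with enough UMIs and at least 1 UMI on both sides, TKO1 over TKO2 in NE-like cells on the left and club-like over NE-like cells of TKO1 on the right, with the 5 factors as orange diamonds. The dashed line is the median of all genes with at least 50 UMIs in the comparison, 0.30 and -0.68. On the right the factors lie between -1.79 and 0.14, and the secretory genes far to the right include those that named the club-like cluster.

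Genes that rise when *Nkx2-1* is lost in lung tumors, those of the gastric and intestinal program, were nearly silent. Of 18, only *Vil1*, a microvillus actin bundler, and *Onecut2* had at least 50 UMIs, at 24.4 against 4.26 CPM (2.52) and 28.9 against 102 CPM (-1.82) in TKO1 against TKO2. *Hnf4a*, *Cdx2*, *Pdx1*, *Gkn1* and *Tff1* had 0 UMIs in the NE-like cells of both tumors. The detection floor was taken as 3 UMIs, of 3765592 in TKO1 and of 7755453 in TKO2.

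Among 17 NE partner factors other than *Prox1*, 10 had enough UMIs, with 4 higher in TKO1, 2 lower and 4 between, and a median log2 ratio of 0.37, close to all genes. The higher ones included *Mycl* (224 against 33.8 CPM, 2.73), *Lhx2* (3.54) and *St18* (1.44). *Neurod1*, a proneural factor, had 0 UMIs in TKO1 and 95 in TKO2, and *Sox4* was at 128 against 269.6 CPM (-1.08). *Insm1* (0.05) and *Nfib* (-0.50) lay between. Across cells at 1000 UMIs the correlations of the 5 members with *Insm1*, *Nfib*, *Mycl*, *Sox4*, *Sox11* and *St18*, where these had enough mean UMIs, lay between -0.071 (*Nkx2-1* with *Mycl*, TKO1) and 0.057 (*Nkx2-1* with *Sox11*, TKO2).

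*Prox1* is also a defining factor of lymphatic endothelium, so markers of that cell type were read beside it. Of 7 lymphatic markers, 6 were at 0 in the NE-like cells of TKO1 and 5 in those of TKO2, with sums of 1.33 and 2.71 CPM. *Lyve1*, *Flt4* and *Mmrn1* were at 0 UMIs in the NE-like cells of both tumors, beside 586 and 971 *Prox1* UMIs. Of 6 blood endothelial markers, 2 were at 0 in TKO1 and 4 in TKO2, with sums of 2.66 and 77.5 CPM, of which *Egfl7* gave 0.266 and 77.0 CPM. *Vwf*, a blood endothelial gene outside that list, was at 441 to 934 CPM over the NE-like clusters of TKO1 and at 7.22 to 706 CPM over those of TKO2, where it led cluster 2, the cluster with the highest *Prox1*. The part of endothelial transcripts in *Prox1* was not tested. No cluster of either tumor was named endothelial.

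The genes most like each member across cells were named as the 5 with the highest correlation, and all were weak. In TKO1 *Elf3* was closest to *Nupr1*, a stress-induced chromatin factor (0.131), the glycolytic enzyme *Aldoa* (0.113), *Bsg* (0.113), *Gins2* (0.094) and the metallothionein *Mt1* (0.091), over 1892 cells. *Nkx2-1* was closest to the splicing factor *Tra2a* (0.107) in TKO1 and to *Fst* (0.109), the activin antagonist follistatin, in TKO2. *Foxa2* was closest to *Arpc4* (0.099) in TKO1 and to *Tmem158* (0.106), *Krt8* (0.101) and *Cd9* (0.098) in TKO2. *Foxa1* was closest to *Gtf2b* (0.105) in TKO1, and *Prox1* to *Clcn3* (0.104) in TKO1 and *Serinc1* (0.075) in TKO2. *Foxa1* and *Elf3* did not reach a mean of 0.05 UMIs in TKO2. For none of the 3 members read in both tumors was the closest gene the same.

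The stretch of chromosome 12 around *Nkx2-1* and *Foxa1* was read because both members there were higher in TKO1. Of the 13 other protein-coding genes within 1 Mb of the pair, 8 had at least 50 UMIs, with a median log2 ratio of 0.13 against 0.30 for all genes. *4921506M07Rik*, next to *Foxa1*, was higher in TKO1 (30.5 against 6.45 CPM, 2.24), *Mbip*, next to *Nkx2-1*, was at 157 against 111 CPM (0.49), and *Insm2* was lower (1.86 against 14.7 CPM, -2.98). *Pax9*, a paired box factor between the 2 members, had 0 UMIs in TKO1 and 266 in TKO2. Of these 8 genes, 1 was at least 2-fold higher and 2 at least 2-fold lower in TKO1, some of them on few UMIs. A cause shared along this stretch was not tested.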

How the data were processed

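The authors processed 1 droplet library per tumor with Cell Ranger on mm10, per the labels, and deposited raw UMI counts per gene and barcode, which are 3′ tags. The gene annotation and tool versions are not given in the sources used here. The 5 members and all gene lists were chosen with earlier results of these data known. Barcodes with more than 500 detected genes were kept, and the study's limit of 10% mitochondrial UMIs removed none. Counts were scaled to 10000 UMIs per cell and clustered in Seurat 5.3.0 (1000 variable genes without the members, 10 principal components, resolution 0.8), each tumor on its own.

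Clusters were named from at least 3 markers 4-fold above the other cells (NE markers 2-fold above macrophage-like cells). Scrublet (scanpy 1.11.5) called 0 doublets in both tumors, and no cell was removed. UMIs were summed per class and divided by the class total (CPM). Intervals are exact Poisson for CPM, Clopper-Pearson for shares and conditional binomial for ratios, at 95%. Correlations and shares used cells thinned to 1000 UMIs with a fixed seed. The text names the members, genes of the lists and markers, coding genes around *Nkx2-1* and *Foxa1*, and for members with a mean of at least 0.05 UMIs the 5 genes with the highest correlation, and leading genes of clusters were named after their values were seen. *Cebpd* and *Sftpg* of the lists had no match by symbol. Of 27998 gene identifiers, 27645 matched GENCODE M21 (GRCm38), whose coordinates are used. The steps were tested on simulated data. edgeR 4.0.16 gave TMM factors as an alternative scaling.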

Additional observations from a re-analysis of the deposited data

Results flagged for a closer look

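Barcodes with 500 or fewer detected genes, which entered no comparison, also held UMIs of each member. In TKO1 these were 300 UMIs of *Nkx2-1* (418 CPM), 49 of *Foxa1* (68.2 CPM), 141 of *Foxa2* (196 CPM), 167 of *Elf3* (232 CPM) and 77 of *Prox1* (107 CPM), over 1321 barcodes. In TKO2 they were 23 of *Nkx2-1* (124 CPM), 6 of *Foxa1* (32.2 CPM), 24 of *Foxa2* (129 CPM), 7 of *Elf3* (37.6 CPM) and 12 of *Prox1* (64.5 CPM), over 248 barcodes. These levels were below those of the NE-like cells, with intervals apart, for *Nkx2-1* (504 CPM), *Foxa1* (105 CPM) and *Prox1* (156 CPM) in TKO1 and for *Prox1* (125 CPM) in TKO2, and the other intervals overlapped. *Nkx2-1* and *Elf3* were again higher in TKO1. *Scgb1a1* was at 50873 CPM in the shallow barcodes of TKO1 and 15042 CPM in those of TKO2. What these barcodes hold was not tested.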

How the results depend on the processing

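Of 60 values of the TKO1 to TKO2 log2 ratio under alternatives, 45 moved by less than their counting interval, 15 moved by more and 0 turned in direction. Scaling moved them most. With TMM factors the log2 ratios of *Nkx2-1*, *Foxa1*, *Foxa2*, *Elf3* and *Prox1* were 1.62, 0.83, 0.25, 1.85 and 0.0079, and relative to the median of all genes 1.62, 0.83, 0.25, 1.85 and 0.0089. With ribosomal protein and mitochondrial genes taken out of the total they were 1.72, 0.93, 0.35, 1.95 and 0.11. Scaling thus decides whether *Foxa1* passes 2-fold and whether *Prox1* differs at all. In cells with more than 1000 genes under the main classes, chosen after the data were seen, *Foxa1* moved to 1.36, while it was under 2-fold over all retained cells (0.99) and with more than 200 detected genes (0.93). Counting the ciliated-marker cluster of TKO1 as NE-like, also chosen after seeing the data, gave 2.30 for *Elf3* and 1.91 for *Nkx2-1*. With *Scgb1a1*, *Scgb3a2* and the same genes taken out of the total, the club-like to NE-like log2 ratio was -0.20 for *Nkx2-1* and 0.64 for *Elf3*. The other 38 of 40 such values stayed within their intervals. Among them, *Elf3* at -0.26 set cells with at least 1 percent secretory UMIs against all others outside the macrophage-like class, not against NE-like cells. Of 140 pair correlations, 4 moved past their range: at 2000 UMIs *Nkx2-1* with *Foxa2* (0.066) and with *Prox1* (-0.057) in TKO1 and *Foxa2* with *Elf3* in TKO2 (0.062), and at 500 UMIs *Foxa1* with *Prox1* in TKO1 (0.049). Shares of cells with a UMI moved past their intervals in 30 of 30 values at other depths or without thinning and in 2 of 10 with another random draw, *Nkx2-1* (12.7%) and *Foxa2* (13.6%) in TKO2. Clustering again with more than 1000 detected genes gave no value, since no NE-like class could be named in TKO1. The cause of these moves was not tested, and the shallow cells limit what shares and correlations can show. No paired analysis was possible because each tumor has 1 library and no test was run.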
